A study of Mus musculus with 4 samples.

Results

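The acute-phase genes measured here were Saa3, Saa1, Saa2, Lcn2, Hp, Orm1, Cp and Steap4, 8 of the 37042 genes or unnamed transcripts kept on the array. They were chosen by name, with earlier results of these arrays known, as secreted proteins of the acute-phase response and a metalloreductase induced by TNF, and each was read by 1 probe whose accession is a RefSeq transcript of the gene. RNA came from primary chondrocytes of 6-day-old C57BL/6J mice in 4 groups with 1 array each. The groups were Rela fl/fl chondrocytes without TNF, Rela fl/fl chondrocytes with 10 ng/mL TNF for 3 days, and Prrx1-Cre; Rela fl/fl chondrocytes (labelled cKO) without TNF and with the same dose for the same time. Both genotypes carry floxed Rela, Prrx1-Cre acts in limb mesenchyme, and the number of mice behind each culture is not given in the sources used here. No value has a replicate, so no difference between groups was tested, and every difference below is between 2 arrays.

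The acute-phase response is the change in blood proteins that follows infection or injury. It is best known from the liver, where interleukin 6, interleukin 1 and TNF act through STAT3, C/EBP and NF-κB factors on the genes of these proteins. Several of the genes are also used outside the liver, in fibroblasts, fat cells, macrophages and joint cells, and Rela is the NF-κB subunit that carries most of the transcriptional response to TNF.

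Of the 59305 transcript spots on each array, between 138 and 225 were left out as outliers, and between 50.9% and 58.1% of the probes were well above background, as the scanner's software judged it. Intensities are given below as deposited, with the error that the software estimated for the spot. Differences are on the log2 scale after each array was divided by its 75th percentile (589.7 to 634.2 intensity units), and a scaled signal of 1 is that percentile. Where one of the arrays compared was not well above background, its signal was set no lower than the faintest one on that array that was, and the difference is then a bound. Probes with 10 spots gave a technical spread of 0.091 for a log2 difference between 2 arrays. It comes from repeated spots within each array, so it leaves out the spread between cultures, labellings and hybridizations. Rela itself was not lower on the cKO-labelled arrays, with scaled signals of 28.3 and 34.7 in Rela fl/fl chondrocytes without and with TNF against 33.95 and 40.2. Xist could be read on both Rela fl/fl arrays but was not well above background on either cKO-labelled array, and the Y-linked gene Eif2s3y was higher on the latter by 1.81 without TNF and 1.83 with TNF. Genotype label and the sex of the cells therefore cannot be told apart in any difference between the genotypes below.

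The chondrocyte markers were present on every array. All 10 were well above background on the 4 arrays, and Col2a1, the collagen of cartilage, had scaled signals between 582 and 607. The summed scaled signals of the 10 were 1612 and 1537 in Rela fl/fl chondrocytes without and with TNF and 1300 and 1331 on the cKO-labelled arrays. Without TNF each of the 10 had a lower signal on the cKO-labelled array, by log2 differences from -0.03 (Col2a1) to -1.85 (Matn1), with Col9a1 at -0.86, Col11a2 at -0.83 and Acan, aggrecan, at -0.60. Their median was -0.41 without TNF and -0.23 with TNF, against 0.01 and 0.06 for all genes. A lower signal of chondrocyte markers thus ran with the genotype label, and its part in the differences below was not tested. All 7 markers of fibroblasts and synovial cells were also well above background on the 4 arrays, with summed scaled signals of 813 and 844 in Rela fl/fl chondrocytes and 719 and 737 on the cKO-labelled arrays. One of them, Thy1, was lower on the cKO-labelled array by -1.59 without TNF and by -0.27, inside the limit, with TNF. Matn1, a cartilage matrilin, passed the limit of 1 used below, at -1.85 without TNF and -1.18 with TNF, and over all genes 4.38% and 3.19% were lower by that much.

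Of the 8 genes, 4 passed a log2 difference of 1 upwards with TNF in Rela fl/fl chondrocytes, among 6 that were well above background on at least 1 of those arrays. These were Saa3, Hp, Lcn2 and Saa1. Over all genes 2.39% passed in that direction and 4.26% downwards, and since the genes were chosen with their response known, nothing is read from the count. On the cKO-labelled arrays, 1 of 5, Lcn2, passed upwards with TNF, against 1.04% of all genes (4.44% passed downwards). Between the arrays with TNF, 3 of 6 (Saa3, Hp and Saa1) were lower on the cKO-labelled array, against 3.19% of all genes, and without TNF 1 of 4 (Hp) was lower, against 4.38%. None of the 8 was higher there in either case, and over all genes 1.17% and 3.53% were. The effect of TNF in Rela fl/fl chondrocytes and the genotype difference with TNF share the TNF-treated Rela fl/fl array, and any chance excess on it would enter each of them.

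**Figure D1:**
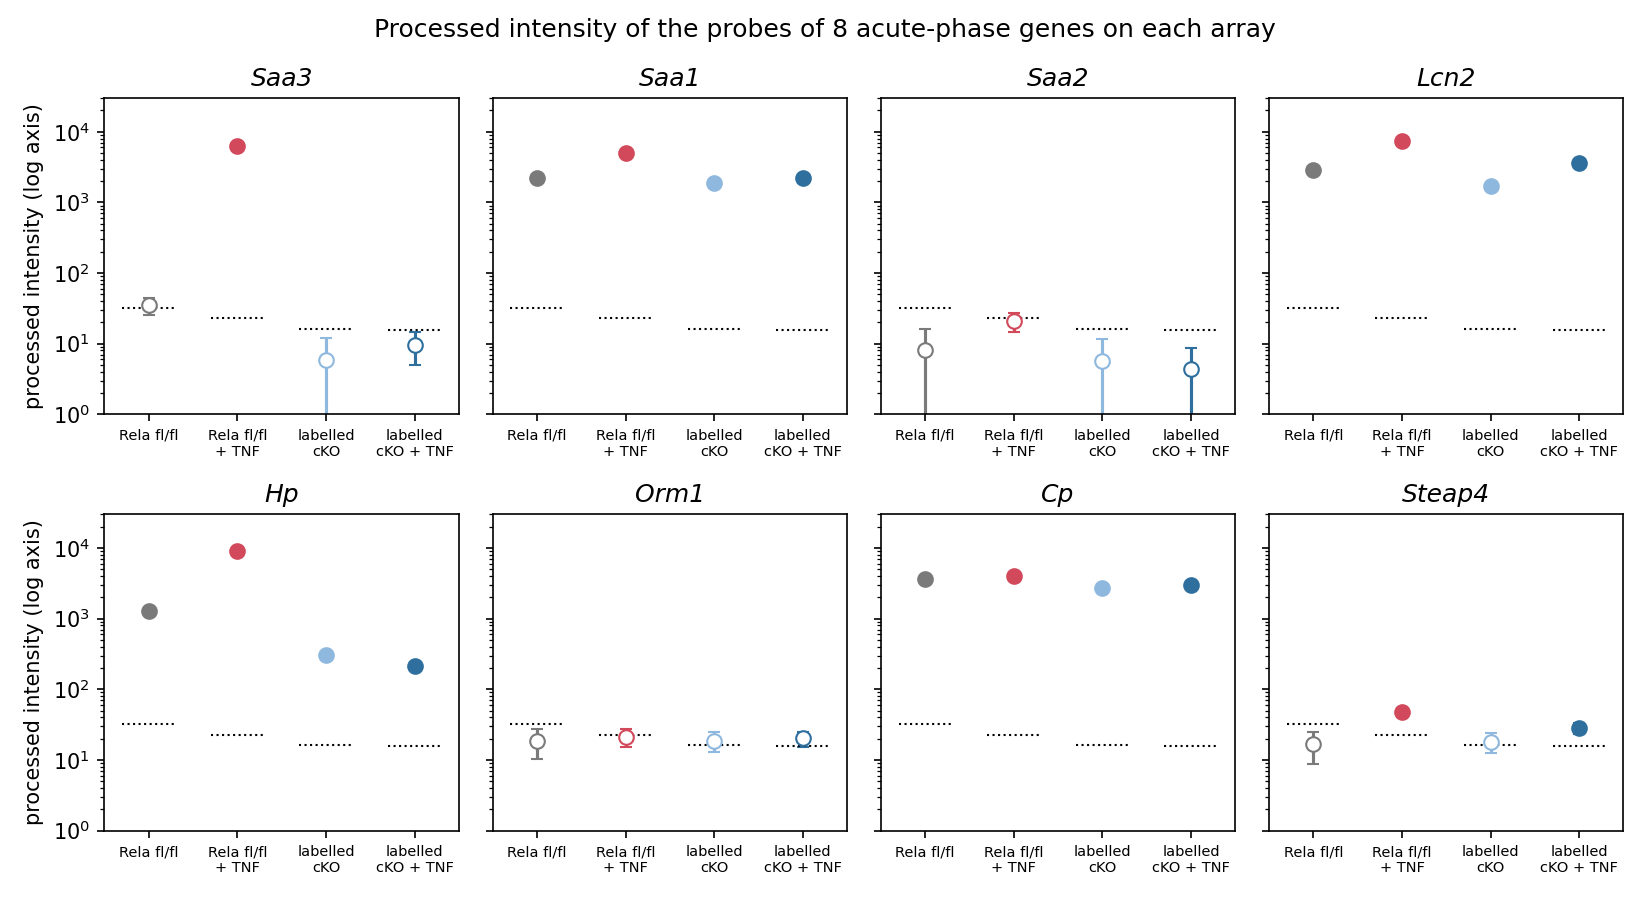
Processed intensity (log axis) of the probe of each of the 8 genes on the 4 arrays, 1 point per array. Filled points were well above background and open points were not, bars are the error estimated by the scanner's software (where not visible, smaller than the point, and running off the axis where the error is as large as the value), and dotted lines mark the lowest intensity well above background on each array. Saa3 is filled only on the TNF-treated Rela fl/fl array, at 6253 units, Saa2 and Orm1 are open on every array, and Cp lies between 2747 and 4053.

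Serum amyloid A proteins are small apolipoproteins of high-density lipoprotein that act on leukocytes. Saa3 (NM_011315) is the form made mainly outside the liver in mice, and Saa1 (NM_009117) and Saa2 (NM_011314) are the liver forms. The genes lie close together on chromosome 7. The 250 bases before the annotated starts are shown for the 3 genes because Saa1 and Saa2 are near copies there, with 94.8% of aligned positions identical, whereas Saa3 shares 52.2% with Saa1 and 52.4% with Saa2. Sequences are from RefSeq (GRCm38.p6), 5′ to 3′ on the strand of the gene, and the capitals mark matches to the C/EBP motif TTNNGNAA on either strand.
Saa3, chr7:46715677-46715926, minus strand: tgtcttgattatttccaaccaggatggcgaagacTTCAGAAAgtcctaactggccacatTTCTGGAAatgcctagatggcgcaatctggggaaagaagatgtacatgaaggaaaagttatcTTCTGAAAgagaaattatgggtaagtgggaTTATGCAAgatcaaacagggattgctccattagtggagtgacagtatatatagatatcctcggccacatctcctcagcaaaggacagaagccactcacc
Saa1, chr7:46742981-46743230, minus strand: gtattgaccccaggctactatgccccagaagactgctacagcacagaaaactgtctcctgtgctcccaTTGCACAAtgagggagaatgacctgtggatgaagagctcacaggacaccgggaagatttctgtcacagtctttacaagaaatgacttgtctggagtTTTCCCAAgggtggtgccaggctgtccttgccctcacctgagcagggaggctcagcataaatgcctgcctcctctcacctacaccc
Saa2, chr7:46751583-46751832, plus strand: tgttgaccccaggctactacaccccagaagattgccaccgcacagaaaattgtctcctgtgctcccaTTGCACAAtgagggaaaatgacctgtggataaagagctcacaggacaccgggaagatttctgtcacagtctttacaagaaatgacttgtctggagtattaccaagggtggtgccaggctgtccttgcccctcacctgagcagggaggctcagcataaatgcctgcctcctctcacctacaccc

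Saa3 held 4 such matches, Saa1 held 2 and Saa2 held 1. The motif is common, and 36.8% of the 32851 windows of this length in the table hold it. No match to the NF-κB consensus, which 7.25% of all windows hold, or to the STAT motif TTCNNNGAA (7.02%) lies in these 3 windows.

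Saa3 had the widest range of the 8 genes over the 4 arrays. Its intensity was 34.7 ± 8.98 units in Rela fl/fl chondrocytes without TNF and 6253 ± 625 units with TNF. On the cKO-labelled arrays it was 5.92 ± 5.94 units without TNF and 9.67 ± 4.75 units with TNF. Only the array of Rela fl/fl chondrocytes with TNF was well above background for this probe. With TNF, Saa3 was thus at least 179-fold higher in Rela fl/fl chondrocytes (a log2 difference of at least 7.49), and at least 379-fold lower on the cKO-labelled array with TNF than on the TNF-treated Rela fl/fl array (a log2 difference of at most -8.57). With normexp background correction these log2 differences were 5.73 and -6.03. That correction adds 50 units to every signal, which shrinks differences from arrays this dim. Between the 2 cKO-labelled arrays, and between the genotypes without TNF, neither signal was well above background and no fold is given.

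Saa1 was well above background everywhere. Its intensity was 2196 ± 220 units in Rela fl/fl chondrocytes without TNF, 4997 ± 500 with TNF, and 1889 ± 189 and 2193 ± 219 on the cKO-labelled arrays without and with TNF. The array of Rela fl/fl chondrocytes with TNF was the high one, and the other 3 lay close together. With TNF the log2 scaled signal was higher by 1.18 in Rela fl/fl chondrocytes and by 0.32 on the cKO-labelled arrays, a difference of -0.86 between the changes against a technical spread of 0.127. The cKO-labelled array differed from the Rela fl/fl array by -0.26 without TNF and by -1.12 with TNF.

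Saa2 was not well above background on any array. Its intensity was 8.13, 20.6, 5.76 and 4.38 units in Rela fl/fl chondrocytes without and with TNF and on the cKO-labelled arrays without and with TNF. The Saa1 and Saa2 probes thus gave different readings although the genes are close paralogues. Probe sequences were not analysed here, so how far either probe takes up RNA of the other gene was not tested, and the split of signal between the 2 genes is uncertain. Saa4, the constitutive member of the family, was also not well above background on any array.

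Lcn2 (NM_008491, chromosome 2) encodes lipocalin 2, which binds bacterial siderophores and so withholds iron from microbes. Its upstream window is shown because Lcn2 alone passed the limit with TNF in both genotypes, and it held 1 match to the C/EBP motif, in capitals.
Lcn2, chr2:32387740-32387989, minus strand: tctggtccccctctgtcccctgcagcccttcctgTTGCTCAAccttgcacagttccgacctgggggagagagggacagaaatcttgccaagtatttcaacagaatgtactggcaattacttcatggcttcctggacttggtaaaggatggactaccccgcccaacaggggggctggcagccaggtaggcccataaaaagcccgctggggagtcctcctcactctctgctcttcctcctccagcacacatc

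Lcn2 had an intensity of 2839 ± 284 units in Rela fl/fl chondrocytes without TNF and 7321 ± 732 with TNF. On the cKO-labelled arrays it had 1696 ± 170 units without TNF and 3577 ± 358 with TNF. Both arrays with TNF were above both arrays without it. The log2 change with TNF was 1.36 in Rela fl/fl chondrocytes and 1.18 on the cKO-labelled arrays, and these differ by -0.18. The genotypes differed by -0.79 without TNF and by -0.97 with TNF, just inside the limit. It passed that limit under other processing, at -1.03 with quantile normalization, without scaling and with the authors' value table, and at -1.04 with normexp. The spot of Lcn2 on the cKO-labelled array without TNF lies in a patch of spots that are bright on that array alone, and its value there is taken up again beside Hp.

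Hp (NM_017370) encodes haptoglobin, the plasma protein that binds free haemoglobin. Its intensity was 1290 ± 129 units in Rela fl/fl chondrocytes without TNF and 8940 ± 894 with TNF, a log2 change of 2.78. On the cKO-labelled arrays it was 302 ± 30.7 units without TNF and 214 ± 21.8 with TNF, a log2 change of -0.40. All 4 signals were well above background, and both Rela fl/fl arrays were above both cKO-labelled arrays. The cKO-labelled array was lower by -2.14 without TNF and by -5.32 with TNF, a 39.9-fold difference in the latter case. The difference between the TNF changes was -3.18, and among the 4 genes well above background on all arrays Hp was the one below a difference of -1, against 2.25% of all such genes.

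The spot of Hp on the untreated Rela fl/fl array lies in a bright patch, as does that of Lcn2 on the cKO-labelled array without TNF. Among probes with 10 spots, the spots in patches exceeded the same probe outside patches by a median of 0.02 on the former array for probes with a scaled signal of 1 or more (188 spots), and the highest excess was 1.48. For probes with a signal of 0.25 to 1 the median was 0.05 and the highest 2.30 (42 spots). For probes under 0.25 the median was 0.33, the 95th percentile 5.12 and the highest 7.31 (208 spots). On the cKO-labelled array without TNF, the values for probes of 1 or more were 0.01 and 0.64 (148 spots), and for those under 0.25 the median was 0.30 and the highest 7.17 (165 spots). What either gene would have read outside a patch is unknown. For Hp, the TNF change of 2.78, the genotype difference of -2.14 and the difference of -3.18 between the TNF changes are therefore uncertain. So are the values of Lcn2 that use the cKO-labelled array without TNF. The part of position in the values of Hp and Lcn2 on these arrays was not tested. Neither spot bears on the difference between the genotypes with TNF, in which the spots of all 8 genes lie outside patches.

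Cp and Steap4 handle metals. Cp (NM_007752) encodes ceruloplasmin, a copper-carrying ferroxidase, and had 3589 ± 359 units in Rela fl/fl chondrocytes without TNF, 4053 ± 405 with TNF, and 2747 ± 275 and 3036 ± 304 on the cKO-labelled arrays without and with TNF. Its log2 changes with TNF were 0.17 and 0.25, and the genotypes differed by -0.43 without TNF and -0.35 with TNF, so no comparison passed the limit. Steap4 (NM_054098) encodes a metalloreductase of the cell membrane that was first described as a TNF-induced protein of fat cells. Its intensity was 16.8 ± 7.99 and 47.4 ± 7.12 units in Rela fl/fl chondrocytes without and with TNF, and 18.2 ± 5.65 and 28.1 ± 4.97 on the cKO-labelled arrays. Only the arrays with TNF were well above background, in both genotypes, which gives bounds of at least 1.46-fold and at least 1.66-fold higher with TNF. With the dim signal taken as measured, the change in Rela fl/fl chondrocytes was 1.49 on the log2 scale. Between the arrays with TNF, Steap4 was lower on the cKO-labelled array by -0.68. With normexp this difference was -0.13, and the TNF changes were 0.35 and 0.29. The 50 units that normexp adds exceed each of these intensities, so smaller differences follow from that setting.

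The window before the start of Steap4 is shown because, of the 6 genes found in the promoter table, it alone held matches to the NF-κB consensus, at -250 to -241 and -226 to -217, and to the STAT motif, at -116 to -108. It also held 2 matches to the C/EBP motif, and that at -230 to -223 overlaps an NF-κB match. The capitals mark all of them.
Steap4, chr5:7960222-7960471, plus strand: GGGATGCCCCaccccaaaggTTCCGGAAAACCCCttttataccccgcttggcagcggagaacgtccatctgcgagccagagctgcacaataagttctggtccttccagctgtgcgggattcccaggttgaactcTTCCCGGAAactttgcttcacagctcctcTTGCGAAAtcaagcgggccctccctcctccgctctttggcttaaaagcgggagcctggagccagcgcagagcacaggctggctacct

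Orm1 (NM_008768), which encodes the plasma protein orosomucoid, was not well above background on any array, with intensities of 18.6, 21.3, 18.8 and 20.2 units. Its relatives Orm2 and Orm3 were likewise not well above background on any array.

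**Figure D2:**
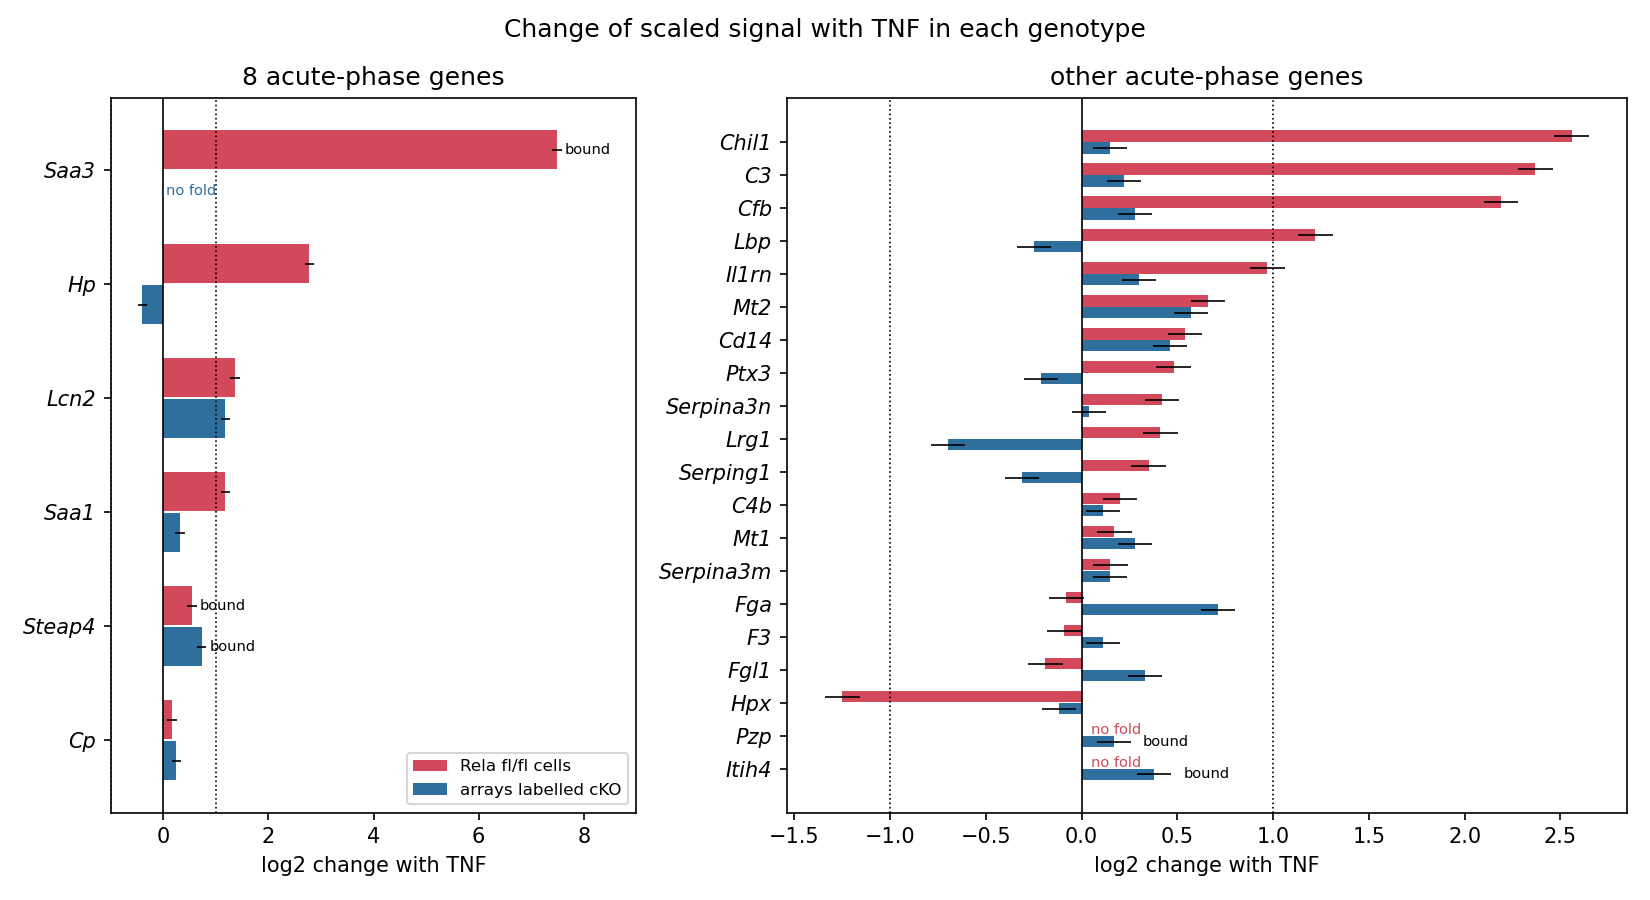
Log2 change of the scaled signal with TNF in Rela fl/fl chondrocytes and on the cKO-labelled arrays, for the 8 genes (left; Saa2 and Orm1 gave no value) and for the other acute-phase genes with a value (right). Bars are single differences between 2 arrays, error bars are the technical spread of a difference, dotted lines are the limit of 1, and "bound" marks a difference against a dim array. Saa3, Hp and the genes Chil1, C3 and Cfb exceed 2 in Rela fl/fl chondrocytes. On the cKO-labelled arrays Saa3 has no value, and the changes of Hp, Chil1, C3 and Cfb are between -0.40 and 0.28, the highest being that of Cfb, whose spot on the array without TNF lies in a patch.

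The wider acute-phase list held 30 other genes, of which 10 were not well above background on any array, among them Crp and Apcs, the pentraxins of the liver, Hamp, the iron hormone hepcidin, and the fibrinogen chains Fgb and Fgg. Among the 19 well above background in either array of Rela fl/fl chondrocytes, 4 passed the limit upwards with TNF and 1 downwards (2.39% and 4.26% of all genes), and the median change was 0.41 against 0.01 for all genes. Among the 20 on the cKO-labelled arrays, 0 passed in either direction (1.04% upwards and 4.44% downwards over all genes), with a median of 0.16 against 0.06. Between the arrays with TNF, 6 of 20 were lower on the cKO-labelled array and 0 were higher, where 3.19% and 1.17% of all genes were.

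The 4 that passed upwards were Chil1, C3, Cfb and Lbp. Chil1, also called Chi3l1, a chitinase-like glycoprotein secreted by joint cells, had scaled signals of 0.634 without and 3.75 with TNF in Rela fl/fl chondrocytes (a log2 change of 2.56), while the cKO-labelled arrays gave 0.243 and 0.270 (0.15). C3, the central complement component, changed by 2.37 and 0.22, and Cfb, complement factor B, by 2.19 and 0.28. The spot of Cfb on the cKO-labelled array without TNF lies in a patch, at a scaled signal of 0.209, and for probes under 0.25 there the excess in patches had a median of 0.30 and a 95th percentile of 4.82, so the change of 0.28 is uncertain. Lbp, which hands bacterial lipopolysaccharide to CD14, changed by 1.22 in Rela fl/fl chondrocytes and by -0.25 on the cKO-labelled arrays. With TNF these genes were lower on the cKO-labelled array by -3.79, -2.62, -3.17 and -2.04. Without TNF, 3 of 18 were already lower there, against 4.38% of all genes, which were Chil1 (-1.38), Cfb (-1.26) and C4b. Hpx, the haem-binding protein hemopexin, was the gene lower with TNF in Rela fl/fl chondrocytes (-1.25), and its spot on the array without TNF lies in a patch.

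Other genes of the list were well above background on all 4 arrays with changes inside the limit. Serpina3n, a protease inhibitor, changed by 0.42 and 0.04, Ptx3, a pentraxin made outside the liver, by 0.48 and -0.21, and Mt2, a metallothionein, by 0.66 and 0.57. C4b, complement component 4, did not pass with TNF (0.20 and 0.11) but was lower on the cKO-labelled arrays by -1.01 without TNF and -1.10 with TNF.

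Of 24 genes for the cytokines, receptors and transcription factors that drive the response, 20 were well above background in Rela fl/fl chondrocytes with or without TNF, and 2 of these passed upwards with TNF, against 2.39% of all genes. Il6 was at least 7.38-fold higher with TNF in Rela fl/fl chondrocytes and, between the arrays with TNF, lower on the cKO-labelled array by -3.86. Its scaled signal on the latter, 0.0267, was the faintest one well above background on that array, so the size of this difference is uncertain. Relb, an NF-κB subunit, changed by 1.02 in Rela fl/fl chondrocytes and 0.57 on the cKO-labelled arrays. Stat3 and the C/EBP factors of the list were well above background on every array with changes inside the limit. Stat3 changed by 0.05 and 0.08, Cebpb by 0.23 and 0.34, and Cebpd by 0.55 and 0.28. The NF-κB subunit Nfkb1 changed by 0.15 and 0.03, Nfkb2 by 0.75 and 0.67, and Nfkbiz, the IκB protein that acts with NF-κB on Lcn2 in other cells, by 0.89 and 0.16. Il1rap passed downwards on the cKO-labelled arrays (-1.83), and its spot on the array without TNF lies in a patch.

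The genes whose profile over the 4 arrays lay nearest to those of Saa3 and Lcn2 were found by Euclidean distance between centred log2 profiles, among 10393 named genes well above background on at least 2 arrays and with no spot in a patch. For Saa3 they were Mmp3 (stromelysin 1), Il6, Chil1, Olfr1311 (an olfactory receptor gene) and Ccl5 (a chemokine), at distances from 3.68 to 4.68, so no gene came near to the size of its range. Saa3 was not well above background on 3 of the 4 arrays. On the cKO-labelled arrays its profile is the level set for dim signals, and on the untreated Rela fl/fl array it lay just above that level. Il6 was at that level on the arrays without TNF, and on the cKO-labelled array with TNF at the faintest signal well above background. The distances to Saa3 and their order depend on these levels. Mmp3 and Ccl5 also changed with TNF on the cKO-labelled arrays, by 2.56 and 2.99, where Saa3 gave no level. For Lcn2 they were Casp4 (an inflammatory caspase), Ecscr, Gpr84, Slco1a6 and Cck, at distances from 0.23 to 0.54. With TNF, Casp4 changed by 1.38 in Rela fl/fl chondrocytes and 0.86 on the cKO-labelled arrays, against 1.36 and 1.18 for Lcn2.

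**Figure D3:**
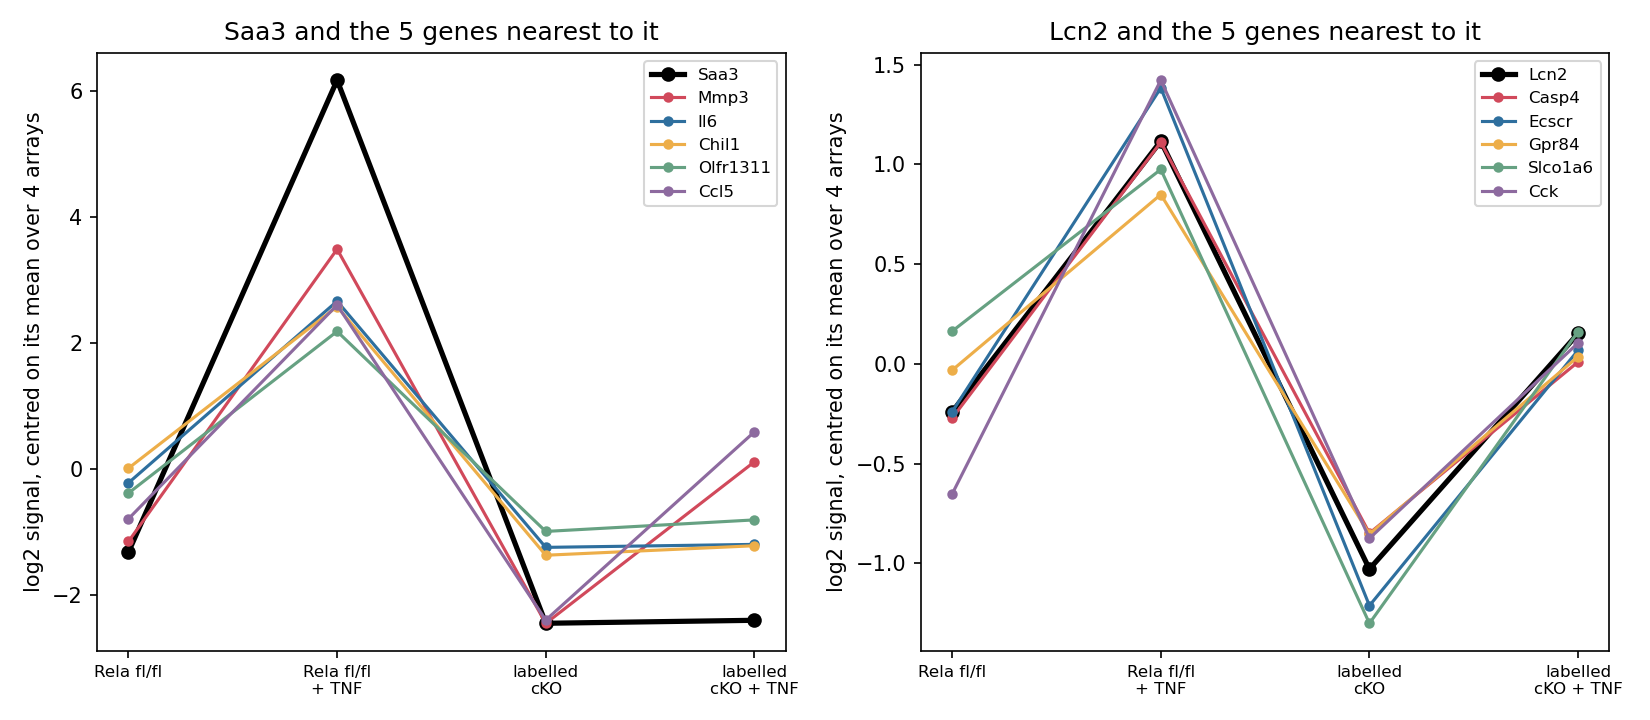
Log2 signal of Saa3 (left) and Lcn2 (right) on the 4 arrays, each profile centred on its own mean, with the 5 genes nearest to each by Euclidean distance. Signals not well above background are drawn at the level set for dim signals where they lay below it. Every gene in both panels is highest on the TNF-treated Rela fl/fl array, and the vertical axes differ.

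Because these genes are known from liver, fat and myeloid cells, markers of those cells were read from the same arrays. In such bulk samples, fewer cells of a type and less RNA per cell cannot be told apart. Of 9 hepatocyte markers with a probe, Alb, Apoa1, Apob, Ttr and Ahsg, the last of which encodes fetuin A, were not well above background on any array, and the summed scaled signal of those well above background on each array (4, 4, 3 and 4) was 9.54 and 9.36 in Rela fl/fl chondrocytes without and with TNF and 9.72 and 9.61 on the cKO-labelled arrays. Apoa2, with signals between 8.95 and 9.34, made up nearly all of that sum. Apoc3 was lower on the cKO-labelled arrays by a bound of -1.83 without TNF, where its spot on the Rela fl/fl array lies in a patch, and by -1.41 with TNF. Of 13 macrophage and neutrophil markers with a probe, Ptprc (CD45), S100a8, S100a9 and Ngp were not well above background on any array. The summed signals of the markers well above background on each array (9, 8, 7 and 8) were 47.3, 43.9, 51.7 and 42.3 in the same order, most of it from Itgam (31.8 to 40.3). Lyz2, lysozyme of myeloid cells, had 0.658, 0.246, 0.153 and 0.128, with its spot in a patch on the first array, and Tyrobp was at least 3.05-fold lower on the cKO-labelled array without TNF. Mpo, myeloperoxidase, was read on the first array alone, at 0.247 with its spot in a patch. Adgre1 (F4/80) went the other way, higher by 2.87 on the cKO-labelled array without TNF, where its spot lies in a patch, and Itgam, the brightest of the list, was higher there by 0.21. With TNF, Camp was lower on the cKO-labelled array by -1.04, and Adgre1 and Itgam differed by -0.50 and -0.02.

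Of the 8 adipocyte markers, 6 were clearly read (well above background) on the untreated Rela fl/fl array, and 4 of these passed the limit downwards on the cKO-labelled array without TNF, against 4.38% of all genes. Adipoq, the hormone adiponectin, gave 0.239 and 0.188 in Rela fl/fl chondrocytes without and with TNF, was not well above background on the cKO-labelled array without TNF, and had 0.0384 there with TNF, where its spot lies in a patch. Cfd (adipsin) had 0.522 and 0.260 in Rela fl/fl chondrocytes and was at least 17.0-fold lower on the cKO-labelled array without TNF. Plin1 and Retn were at least 2.40-fold and at least 2.46-fold lower there. With TNF, 2 of 6 were lower on the cKO-labelled array, Cfd (-2.46) and Adipoq (-2.29), and 1 was higher. Over all genes 3.19% and 1.17% were. Fabp4 had signals between 2.48 and 3.54, Pparg was higher on the cKO-labelled arrays by 0.88 and 1.26, and the summed signals of the markers well above background on each array (6, 5, 2 and 5 of the 8) were 5.29 and 5.54 in Rela fl/fl chondrocytes and 6.18 and 6.87 on the cKO-labelled arrays, most of it from Fabp4 and Pparg. Adipoq and Cfd thus ran with Hp, a gene also expressed in fat cells, in being higher on both Rela fl/fl arrays. With TNF, however, Adipoq changed by -0.35 and Cfd was 2.01-fold lower in Rela fl/fl chondrocytes, where Hp changed by 2.78. The part of fat or myeloid cells in the values of the acute-phase genes was not tested.

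**Figure D4:**
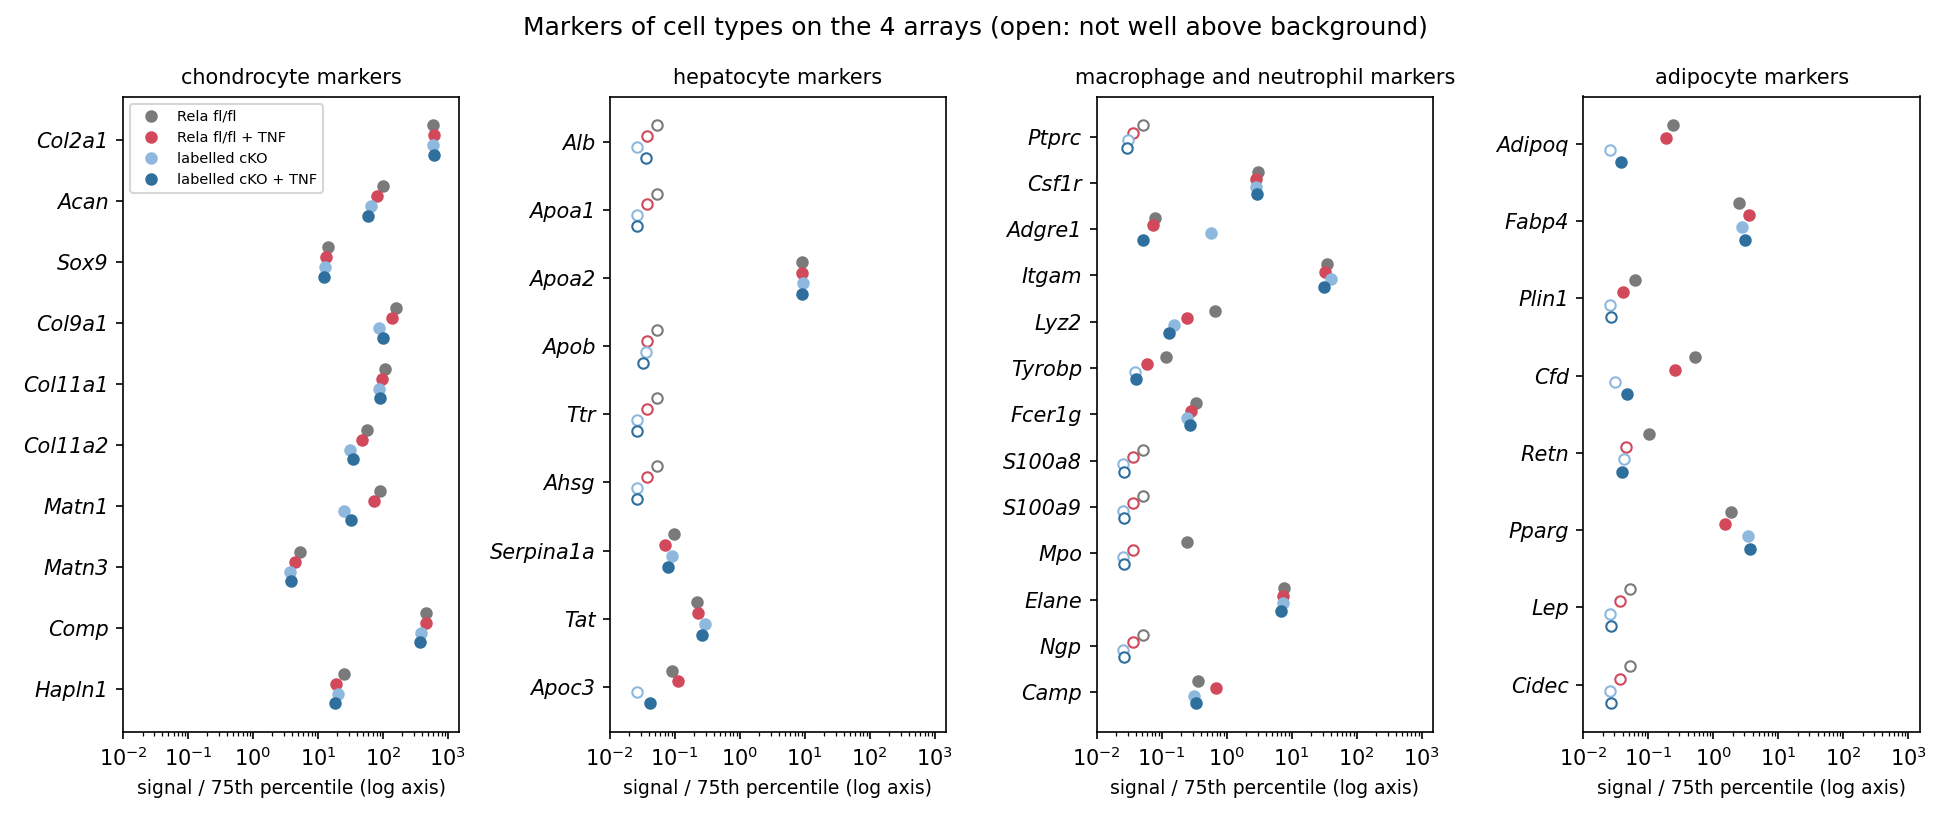
Scaled signal (log axis, 1 is the 75th percentile of an array) of markers of chondrocytes, hepatocytes, macrophages and neutrophils, and adipocytes, 1 point per array. Open points were not well above background, and those below the level set for dim signals are drawn at it. The 10 chondrocyte markers are filled on every array, Alb, Apoa1, Apob, Ttr and Ahsg are open on every array, and Adipoq, Plin1 and Cfd are filled on both Rela fl/fl arrays and open on the cKO-labelled array without TNF.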

How the data were processed

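Labelled RNA of 4 samples, 1 per combination of genotype and treatment, was read on 1-colour Agilent mouse arrays. The deposited scanner output, from Agilent Feature Extraction 10.10.1.1 per the submitters' processing notes, gives each spot's processed intensity (background-subtracted and detrended), its error, raw intensities, and flags for outliers and for signal well above background. A second deposited table is this intensity times 1 factor per array (1.77 to 1.83), so it is linear and not centred, with medians of 82.4, 74.2, 88.5 and 69.4. The basis of the factors is not given in the sources used here. Here, log2 intensities were lowered by the 75th percentile of each array, outlier spots were left out, repeated spots were averaged and each gene was read from its brightest probe. Accessions in the files were named through the RefSeq table of GRCm38.p6 (20641 genes with a symbol). The files name mm9, so printed coordinates are those of GRCm38.p6 and belong to the RefSeq sequences. Of the 8 genes, 6 were in the promoter table, and Hp and Orm1 were not. A spot lay in a patch when 3 or more other spots within 5 rows and 2 columns were at least 2-fold brighter on that array than on the other 3. The genes, the lists and the rule for patches were chosen with earlier results of these data known. Named genes are the 8, list genes past the limit with TNF, list genes chosen for their role, and the 5 nearest profiles of Saa3 and Lcn2. Alternatives covered scaling, background (normexp), filter, probe summary, limit and patches. Normexp was run on the median intensity, since no mean intensity column was used, with an offset of 50 units. With 1 array per group no test was run, so the number of arrays limits precision. The counting and patch rules were tested on simulated data. Python 3.11.15, numpy 2.4.6, pandas 2.3.3, Biopython 1.88, R 4.3.3 and limma 3.58.1 (normexp and quantile) were used.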

Additional observations from a re-analysis of the deposited data

Results flagged for a closer look

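Of 96 genes well above background on all 4 arrays, among the 8 and the lists, 14 had TNF changes of opposite sign in the 2 genotypes, each beyond the technical spread. That is 14.6%, and 15.1% of all genes well above background on all 4 arrays met the same rule, so nothing is read from the count. Without scaling it was 13, with Cebpa, Col9a1, Col11a2, Fcer1g and Steap1 no longer in it and Lrp1, P2rx7, Steap2 and Steap3 added. The difference was not tested in any of them, because each value comes from 1 pair of arrays. On the log2 scale, Hp changed by 2.78 in Rela fl/fl chondrocytes and by -0.40 on the cKO-labelled arrays. Its spot on the untreated Rela fl/fl array lies in a patch. In the wider acute-phase list, and in the same order, Lbp changed by 1.22 and -0.25, Lrg1 by 0.41 and -0.70, Ptx3 by 0.48 and -0.21, Serping1 by 0.35 and -0.31, and Fgl1 by -0.19 and 0.33. Il1rap changed by 0.42 and -1.83, with its spot on the cKO-labelled array without TNF in a bright patch, Cebpa by -0.19 and 0.13, and Steap1 by -0.36 and 0.18. Among the cell type markers, Thy1 changed by -0.69 and 0.63, Matn1 by -0.29 and 0.38, Col9a1 by -0.22 and 0.18, Col11a2 by -0.22 and 0.12, and Fcer1g by -0.29 and 0.11, with a spot of Col9a1 and of Col11a2 in a patch on a Rela fl/fl array.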

How the results depend on the processing

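No paired analysis was possible because each group holds a single array and the groups compared share fewer than 2 replicate numbers. The numbers of the 8 genes past the limit were 4 (above it with TNF, Rela fl/fl chondrocytes), 1 (higher with TNF on the cKO-labelled arrays), 3 (lower on the cKO-labelled array with TNF), 1 (lower there without TNF) and 1 (smaller TNF rise on the cKO-labelled arrays). A 3-fold limit gave 2 for the first and 0 for the second. A 1.5-fold limit gave 2, 5, 2 and 2 for the second to the last. Without the filter on dim signals, the last 2 numbers were 2 and 3. With patches left out, the second number and the last 2 were each 0, because Lcn2 and Hp then have no value on 1 array. The other alternatives left the counts within 1.5 times, and Lcn2 joined the 3 genes lower with TNF under quantile normalization, without scaling, with the authors' value table (-1.03 each) and with normexp (-1.04). Over 105 recomputed differences of single genes, 78 stayed within the technical spread and 27 moved further (12 of them with normexp). Another 55, under the probe summary, the stricter filter and patches left out, could not move for genes with 1 probe and 1 spot, and 0 differences past the limit changed sign. The median of all genes with TNF on the cKO-labelled arrays went from 0.06 to -0.05 without scaling, and there Saa1 changed by 0.22, Lcn2 by 1.08 and Hp by -0.50.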

Other observations

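Of 13 receptors for acute-phase proteins, 6 were well above background in Rela fl/fl chondrocytes and 1 passed the limit upwards with TNF, against 2.39% of all genes. Tlr2, which takes part in the response to serum amyloid A, had a TNF change of 1.02 in Rela fl/fl chondrocytes and 0.36 on the cKO-labelled arrays. Tlr4 and Scarb1, also proposed as receptors of serum amyloid A, had scaled signals between 1.17 and 1.44 and between 5.17 and 7.56, with TNF changes of 0.13 and 0.23 in Rela fl/fl chondrocytes and 0.18 and 0.30 on the cKO-labelled arrays. The other proposed receptors Fpr1, Fpr2, Ager and Cd36 were not well above background on any array. Slc22a17, a receptor proposed for lipocalin 2, had scaled signals between 5.69 and 7.67. P2rx7 was higher on the cKO-labelled arrays by 1.24 without TNF and 1.04 with TNF. Its spot on the TNF-treated Rela fl/fl array lies in a patch. Cd163, the receptor for haptoglobin and haemoglobin, was well above background only on the cKO-labelled array without TNF, where its spot lies in a patch, and so was Lrp2.

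Of 24 genes of iron and copper handling, 20 were well above background in Rela fl/fl chondrocytes and 1 passed the limit upwards with TNF, against 2.39% of all genes. That was Slc39a8, a zinc and iron importer, which changed by 1.01 in Rela fl/fl chondrocytes and 0.03 on the cKO-labelled arrays. Slc40a1, the iron exporter ferroportin, was lower on the cKO-labelled arrays by -1.20 without TNF and -1.11 with TNF, and Trf, transferrin, by -1.16 and -0.90. The ferritin chains Fth1 and Ftl1 changed with TNF by 0.27 and -0.02 in Rela fl/fl chondrocytes and by 0.26 and 0.10 on the cKO-labelled arrays. The relatives of Steap4, Steap1, Steap2 and Steap3, were well above background on every array, with TNF changes between -0.36 and 0.18.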
